A study of Mus musculus with 21 samples.

Results

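Transcripts of 33 genes of the cardiac sarcomere and its Z-disc were followed in the apex of the neonatal mouse heart, in 7 groups of 3 libraries. The genes were chosen by symbol, for their place in the contractile apparatus, and all 33 were found among the 18762 genes of the deposited table. The animals were ICR mice whose ventricular tip had been resected at 1 day of age, and the heart apex was taken at postnatal day 7. The control group is described by the resection alone, and whether it received an injection is not stated. The other 6 groups had the same resection and were injected subcutaneously over 7 consecutive days with isoproterenol, which activates β-adrenergic receptors, or with 1 of 5 anti-arrhythmic drugs. These were amiodarone (a blocker of potassium and other channels), metoprolol and propranolol (β-blockers), lidocaine (a sodium channel blocker) and ivabradine (a blocker of the pacemaker current). Doses are not stated. Nothing shows that libraries of the same group are from different animals, and p-values therefore describe only how far libraries scattered. The apex is a mixture of cells, and in such bulk RNA fewer cells of a type and less RNA per cell cannot be told apart.

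The sarcomere is the contractile unit of striated muscle. Thick filaments of myosin pull on thin filaments of actin, tropomyosin and troponin, titin spans from the Z-disc to the M-band, and the Z-disc anchors the thin filaments and carries sensors of stretch. Around birth the mouse ventricle exchanges several contractile isoforms: β-myosin heavy chain (Myh7) gives way to α-myosin heavy chain (Myh6), slow skeletal troponin I (Tnni1) to cardiac troponin I (Tnni3), and skeletal α-actin (Acta1) is expressed beside cardiac α-actin (Actc1).

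Values are FPKM, fragments per length of transcript and per total mapped, so that levels may be compared between genes. The FPKM of a library summed to 496304 to 552905, and r across genes between 2 libraries of the same group was 0.988 to 0.996. Reads were not counted in the table, so absolute depth is unknown. Relative depth, read from the steps in the values of 17 low genes, ran from 0.965 to 1.03. It came out as exactly 1 in most libraries, and because the values are rounded it is only a coarse estimate. The sum of 12 cardiomyocyte markers outside the 33 genes, among them Mb, Pln and Ryr2, was 19427 to 23118 FPKM in every library. Such a sum weighs most on abundant genes, and Mb alone was at 5480 to 7418 FPKM. Ryr2 was at 36.3 to 39.9 FPKM in the controls and at 45.3 to 71.0 FPKM with drugs. By the test described below, 5 to 8 of the 12 rose and 0 or 1 fell with each drug. Markers of other tissues stood out in a few libraries: the fast skeletal muscle light chain Mylpf at 62.7 FPKM in control 3, the atrial light chain Myl7 at 176 FPKM in isoproterenol 3, the lung gene Sftpc at 222 FPKM in amiodarone 2 and the liver gene Alb at 10.8 FPKM in propranolol 1. Results below were also computed without these 4 libraries. Amiodarone 3, with Mylpf at 30.4 FPKM, and lidocaine 1, with Sftpc at 9.10 FPKM, were also raised but were not among the 4 left out.

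Against the resected control, more of the sarcomere genes rose than fell with every drug. A gene was called changed where its adjusted p in limma, a linear model fitted to log2(FPKM + 1) of all genes, was below 0.05. Fold changes on this scale understate the change of low genes. With isoproterenol 17 of the 33 genes rose and 1 fell, where 8.38% of all tested genes rose and 25.8% fell. With amiodarone 16 rose and 0 fell (8.47% and 20.6% of all tested genes). With metoprolol 13 rose and 2 fell (9.48% and 22.0% of all tested genes). With propranolol 14 rose and 0 fell (6.98% and 19.8%), with lidocaine 14 rose and 2 fell (10.6% and 26.6%), and with ivabradine 13 rose and 0 fell (7.91% and 19.1%). The median log2 change of the 33 genes ran from 0.11 with propranolol to 0.25 with isoproterenol, beside medians of -0.10 to -0.08 over all tested genes. Rescaling the libraries by median ratios moved the median of all genes up by about 0.1, to between -0.01 and 0.01. It gave 2145 genes higher and 1486 lower with isoproterenol in place of 1042 and 3212, 1862 and 1030 with amiodarone (1053 and 2555), 2016 and 1162 with metoprolol (1179 and 2731), 1805 and 1104 with propranolol (868 and 2464), 2350 and 1585 with lidocaine (1312 and 3303) and 1813 and 1214 with ivabradine (984 and 2374). Of the sarcomere genes it gave 19 higher and 1 lower, 16 and 0, 17 and 0, 16 and 0, 17 and 0, and 16 and 0 in the same order of drugs.

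Markers of macrophages, fibroblasts and endothelium moved alongside these rises, downwards wherever they were called in the values as deposited. Of all tested genes 19.1% (ivabradine) to 26.6% (lidocaine) were called lower. A count of 1 in 6 fibroblast or 1 in 5 endothelial markers is therefore near that of genes in general. Of 6 macrophage markers tested, 5 fell with isoproterenol, 2 with amiodarone and 4 with each of the other 4 drugs. In the controls 7 such markers summed to 235 to 616 FPKM. The isoproterenol libraries held 86.2 to 191 FPKM and the 15 anti-arrhythmic libraries 129 to 419 FPKM, and all 3 libraries of isoproterenol and of propranolol lay below every control. C1qa, a complement gene of macrophages, fell with all 6 drugs, by 0.70 (log2, adjusted p = 0.022) with amiodarone to 1.49 (adjusted p = 8.8e-05) with isoproterenol. Of 6 fibroblast markers 1 to 3 fell and 0 rose with each drug, their sum being 1122 to 2204 FPKM in the controls and 1060 to 1695 FPKM with drugs. Tcf21, a fibroblast transcription factor, fell with all 6 drugs by 0.21 to 0.45 (log2, adjusted p at most 0.019). Of 5 endothelial markers 1 to 3 fell and 0 rose with each drug, their sum being 521 to 590 FPKM in the controls and 459 to 571 FPKM with drugs. Pecam1, an adhesion molecule of endothelium, fell with all 6 drugs by 0.14 to 0.24 (log2, adjusted p at most 0.046). After rescaling by median ratios, C1qa was still lower with all 6 drugs, Tcf21 with the 5 anti-arrhythmic drugs and Pecam1 with amiodarone alone, and 1 fibroblast marker, Pdgfra, was higher with isoproterenol. With the length and GC correction described below, C1qa was lower with every drug but amiodarone and Tcf21 with propranolol and ivabradine alone. Pecam1 was then lower with the 5 anti-arrhythmic drugs, and Pdgfra was again higher with isoproterenol. None of these 18 markers was at 0 in any library, and their part in the changes of the sarcomere genes was not tested.

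The 6 comparisons share the 3 control libraries, so agreement among them is not independent. With that limit, 10 of the 33 genes were called higher in all 6 comparisons, as were 2.79% of all tested genes. They were Myh6, Mybpc3, Ttn, Myom1, Myom2, Cmya5, Synpo2, Mypn, Nrap and Flnc. In 9 of these, all but Ttn, each of the 18 drug libraries lay above each of the 3 controls, which held for 3.23% of all tested genes. Another 7 genes rose with 1 to 5 drugs (Acta1, Ldb3, Actn2, Nebl, Des, Xirp1 and Lmod2), 3 fell with at least 1 drug (Tnnt1, Tcap and Myl2), and 13 were called in no drug comparison. Of the 92 calls, 53 held in every alternative and 39 were lost in at least 1, most often without control 2, without control 3, without a library of the drug's own group or without the 4 libraries named above.

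**Figure D1:**
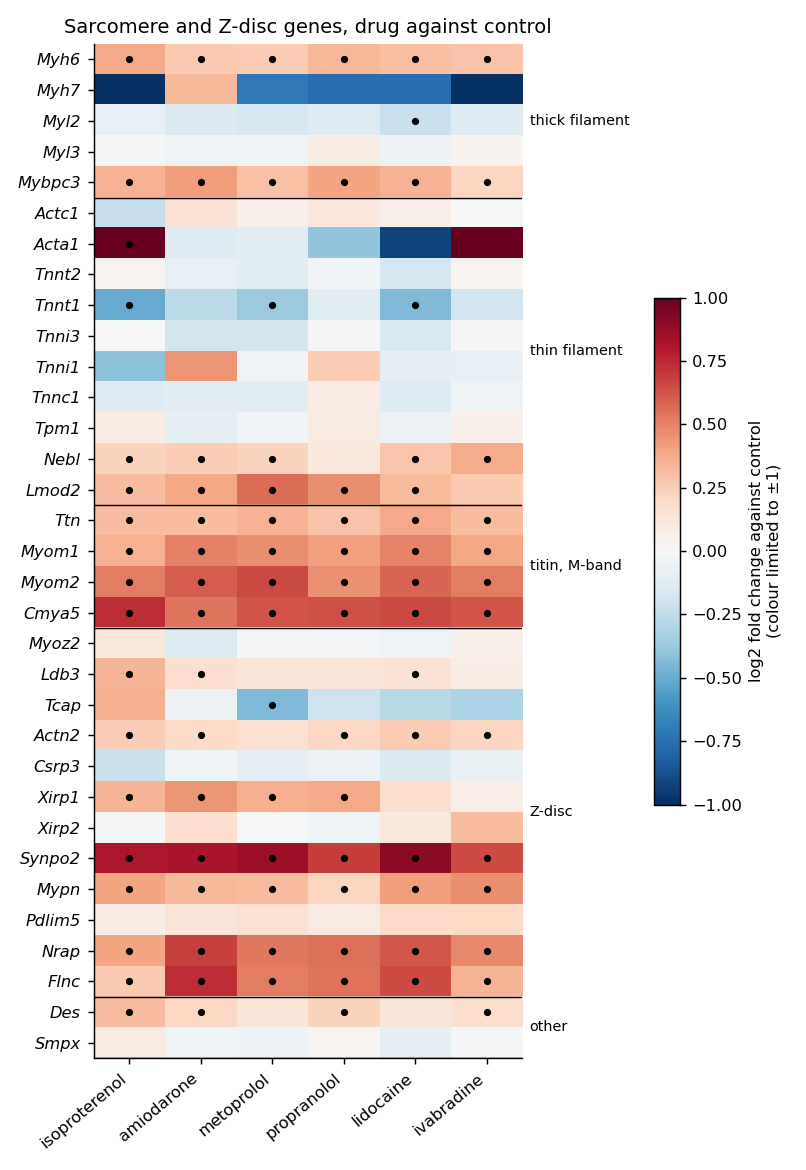
Log2 fold change of each of the 33 genes (rows, grouped by role) with each of the 6 drugs (columns) against the 3 control libraries, on the log2(FPKM + 1) scale, with the colour limited to 1 in either direction. Dots mark calls, and the titin and M-band block is dotted in all 6 columns while thin filament troponins are mostly pale.

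In the thick filament 2 of 5 genes rose with every drug. Myh6, the adult motor of the mouse ventricle, stood at 4912, 5059 and 4618 FPKM in the controls, and the 18 drug libraries ran from 5493 FPKM in metoprolol 2 to 6689 FPKM in isoproterenol 3. Its log2 changes lay between 0.25 and 0.38 (SE 0.07, adjusted p at most 0.014). The call was lost with no filter on low genes for amiodarone, metoprolol, lidocaine and ivabradine, without control 3 or the 4 libraries named above for amiodarone and metoprolol, without metoprolol 1 for metoprolol, and with only the 2 groups fitted for ivabradine (adjusted p = 0.051 to 0.14). Mybpc3, the myosin-binding protein C that brakes cross-bridge cycling, was at 1058, 930 and 914 FPKM in the controls and at 1078 to 1366 FPKM with drugs, so that the groups did not overlap. Its log2 changes lay between 0.22 with ivabradine and 0.42 with amiodarone (SE 0.07, adjusted p at most 0.031), and only the ivabradine call was lost in some alternatives (control 2, control 3 or ivabradine 3 left out among them, adjusted p up to 0.15). The light chains were seldom called. Myl2, the ventricular regulatory light chain and the most abundant of the 33 transcripts, was at 15723, 14551 and 14863 FPKM in the controls and fell by 0.23 (log2, SE 0.08, adjusted p = 0.043) with lidocaine alone, a call lost in 17 alternatives. Its log2 difference from control with lidocaine was 0.06 (adjusted p = 0.50) once transcript length and GC content were corrected for. The essential light chain Myl3 had log2 differences of -0.05 to 0.07, none of them called.

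Myh7, the fetal motor, was the most variable of the thick filament genes. It stood at 150, 51.9 and 153 FPKM in the controls, at 86.3, 35.7 and 24.7 FPKM with isoproterenol and at 303, 143 and 54.2 FPKM with amiodarone. The other 12 libraries ran from 39.3 to 109 FPKM. The groups overlapped, and no drug comparison passed the test. The difference was -1.30 (log2, SE 0.55, adjusted p = 0.076) with isoproterenol, passing only without control 2 (-1.81, adjusted p = 0.030), without isoproterenol 1 (-1.80, adjusted p = 0.025) or without amiodarone 3 (adjusted p = 0.045).

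In the titin and M-band group 4 of 4 genes rose with every drug. Cmya5 (myospryn), a large costamere and Z-disc scaffold that is grouped here with the giant proteins, was at 12.9, 11.1 and 10.5 FPKM in the controls and at 15.6 to 21.8 FPKM in the 18 drug libraries. Its log2 change was largest with isoproterenol (0.74, SE 0.10, adjusted p = 7.9e-05) and smallest with amiodarone (0.53, SE 0.10, adjusted p = 0.0018, lost without the 4 libraries named above, adjusted p = 0.059, as was the Myom1 call with isoproterenol, adjusted p = 0.050). Every drug library thus exceeded every control. Myom1, the myomesin that crosslinks thick filaments at the M-band, was at 214, 216 and 180 FPKM in the controls and 243 to 303 FPKM with drugs, and Myom2, the adult-type myomesin, was at 282, 180 and 215 FPKM in the controls and 283 to 392 FPKM with drugs. The log2 changes were 0.34 to 0.50 for Myom1 (SE 0.07, adjusted p at most 0.0011) and 0.46 to 0.66 for Myom2 (SE 0.14, adjusted p at most 0.023). Control 1 carried the highest Myom2 of the controls, only just under the lowest drug libraries, isoproterenol 3 and propranolol 2. The Myom2 calls with isoproterenol, propranolol and ivabradine were lost without control 2 or with only the 2 groups fitted, the first also without isoproterenol 1 and the second without control 3, propranolol 1 or the 4 libraries (adjusted p over these alternatives up to 0.066, 0.21 and 0.080). Ttn, the titin spring, was at 32.9, 29.0 and 27.6 FPKM in the controls and at 31.1 to 42.6 FPKM with drugs, the lowest being ivabradine 1, which overlapped the controls. Its log2 changes were 0.28 to 0.38 (SE 0.09, adjusted p at most 0.029), held in every alternative with metoprolol and lidocaine, and were lost for the other 4 drugs without control 3 (adjusted p = 0.067 to 0.11) or without the 4 libraries (adjusted p = 0.093 to 0.25). Some were also lost without control 2 or a library of the drug group, and the ivabradine call with only the 2 groups fitted (adjusted p = 0.056 to 0.11).

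At the Z-disc 4 of 12 genes rose with every drug and 3 more with some. Synpo2 (myopodin), an actin-bundling Z-disc protein, had the largest changes of the 10 genes. It was at 8.18, 6.62 and 7.96 FPKM in the controls, at 12.8, 12.8 and 16.9 FPKM with isoproterenol, at 12.8, 15.8 and 13.8 FPKM with amiodarone and at 17.0, 11.6 and 15.5 FPKM with metoprolol. The propranolol libraries were at 13.4, 13.5 and 11.7 FPKM, the lidocaine libraries at 14.3, 16.9 and 13.8 FPKM and the ivabradine libraries at 10.1, 14.6 and 13.0 FPKM. No drug library reached down to the controls, and the log2 changes were 0.65 to 0.90 (SE 0.14, adjusted p at most 0.0031), held in every alternative. Nrap, a scaffold of myofibril assembly, was at 79.3, 71.7 and 69.2 FPKM in the controls and at 85.2 FPKM (isoproterenol 2) to 129 FPKM (amiodarone 3) with drugs. Its log2 changes were 0.39 to 0.68 (SE 0.08, adjusted p at most 0.0016), also held in every alternative.

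Flnc, filamin C, which crosslinks actin at the Z-disc and is recruited to damaged sarcomeres, had a range over the drugs whose F test is given with the comparison of the anti-arrhythmic groups. The controls were at 41.1, 37.4 and 38.0 FPKM, isoproterenol at 47.7, 46.2 and 46.4 FPKM and ivabradine at 42.2, 54.5 and 52.4 FPKM. Amiodarone stood highest, at 68.7, 61.8 and 66.3 FPKM, and lidocaine at 56.8, 60.4 and 68.1 FPKM. The log2 change was 0.74 (SE 0.08, adjusted p = 3.8e-05) with amiodarone and 0.26 (SE 0.08, adjusted p = 0.016) with isoproterenol, and the latter was lost without control 2 (adjusted p = 0.062), control 3 (adjusted p = 0.052) or the 4 libraries named above (adjusted p = 0.12). The ivabradine call was lost with only the 2 groups fitted (adjusted p = 0.053). Mypn (myopalladin), which tethers nebulette and α-actinin, rose by 0.22 to 0.47 (SE 0.07, adjusted p at most 0.033). The Mypn libraries were at 20.7 to 21.9 FPKM in the controls and 24.6 to 34.0 FPKM with drugs, without overlap, although the propranolol call was lost without control 2, control 3 or any 1 propranolol library (adjusted p = 0.053 to 0.11) or without the 4 libraries (adjusted p = 0.14), as was the amiodarone call without the 4 (adjusted p = 0.051).

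Among the other Z-disc genes Actn2, the α-actinin that crosslinks thin filaments, rose with 5 drugs (log2 0.20 to 0.26 for the calls), 2 of them in every alternative. Xirp1, an actin-binding repeat protein of intercalated discs, rose with isoproterenol, amiodarone, metoprolol and propranolol, by 0.34 to 0.44. It stood at 45.0 to 52.3 FPKM in the controls and at 48.3, 55.7 and 47.9 FPKM with ivabradine, where the log2 difference was 0.07 (SE 0.08, adjusted p = 0.58). Ldb3 (cypher/ZASP), a PDZ and LIM domain scaffold, rose with isoproterenol, amiodarone and lidocaine, the first of these in every alternative. Tcap (telethonin), which caps titin at the Z-disc, fell by 0.44 (log2, SE 0.15, adjusted p = 0.031) with metoprolol, a call lost in 8 alternatives, rescaling among them. Myoz2, Csrp3, Xirp2 and Pdlim5 were called with no drug. Their log2 differences over the 6 drugs ran from -0.14 to 0.11 for Myoz2, from -0.22 to -0.05 for Csrp3, from -0.05 to 0.31 for Xirp2 and from 0.08 to 0.20 for Pdlim5.

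**Figure D2:**
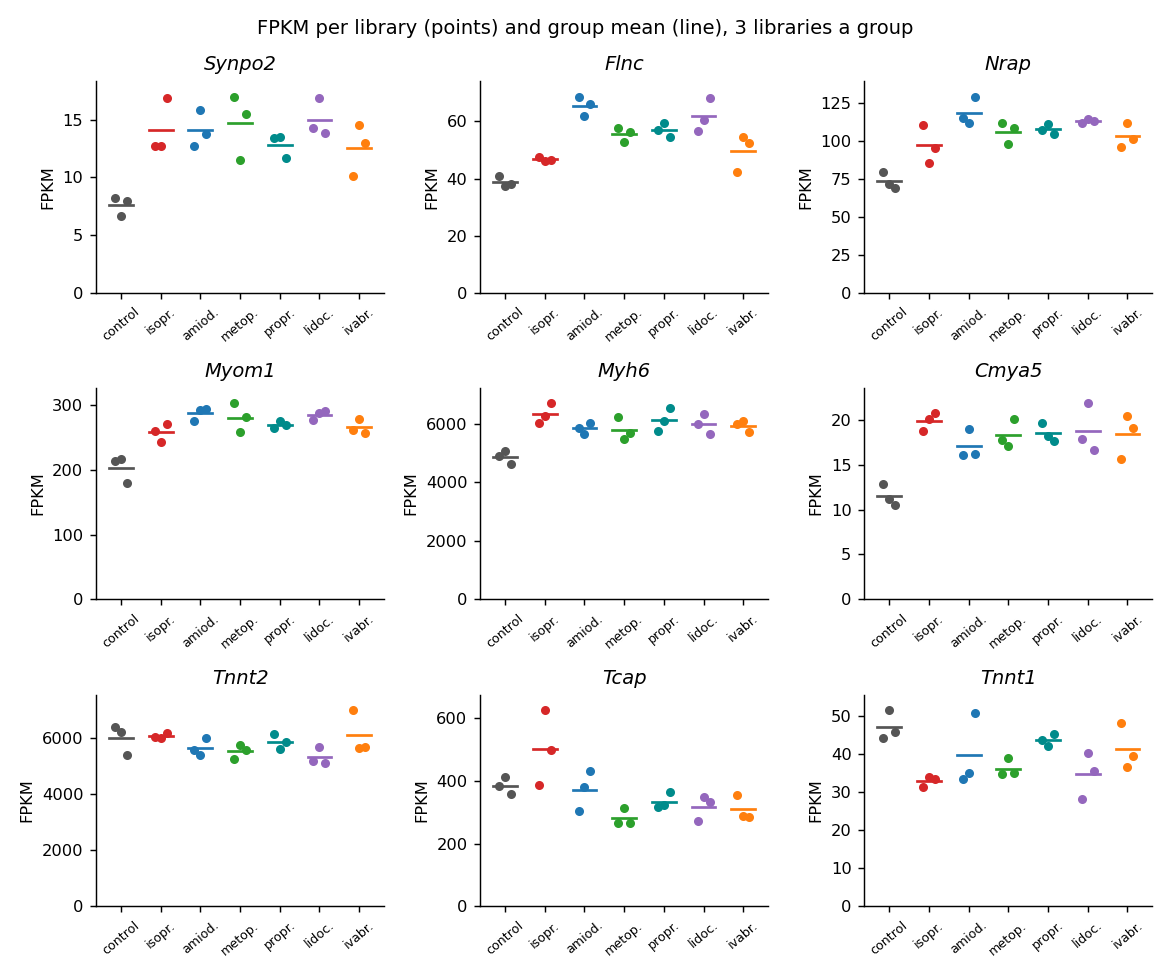
FPKM of 9 genes in each library (points) and the mean of each group (lines) for the control and the drugs isoproterenol, amiodarone, metoprolol, propranolol, lidocaine and ivabradine, with names shortened on the axis. In the upper 6 panels every drug library lies above the 3 controls, whereas Tnnt2, Tcap and Tnnt1 overlap the controls with 3 or more drugs each.

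In the thin filament 0 of 10 genes rose with every drug. The troponins Tnnt2, Tnni3, Tnni1 and Tnnc1 and the tropomyosin Tpm1 were called with no drug. Tnnt2, cardiac troponin T, was at 6374, 6201 and 5380 FPKM in the controls and at 5102 to 6984 FPKM with drugs. Tnnt1, slow skeletal troponin T, was at 44.1, 51.5 and 45.9 FPKM in the controls and at 31.3, 33.9 and 33.5 FPKM with isoproterenol, a fall of 0.51 (log2, SE 0.13, adjusted p = 0.0079). It also fell with lidocaine (by 0.44, adjusted p = 0.016; 28.1, 40.4 and 35.7 FPKM) and metoprolol (by 0.37, adjusted p = 0.043; 34.7, 39.0 and 35.0 FPKM). In the remaining libraries Tnnt1 ran from 33.5 FPKM in amiodarone 1 to 50.8 FPKM in amiodarone 3. All 3 Tnnt1 calls were lost after correction for length and GC content, the lidocaine and metoprolol calls also with rescaling or without control 2, the lidocaine call without lidocaine 1, the metoprolol call with no filter or without control 3, metoprolol 1 or metoprolol 3, and the isoproterenol and metoprolol calls without the 4 libraries (adjusted p = 0.056 to 0.45). Skeletal muscle markers moved alongside Tnnt1: of 10 tested, 9 fell with isoproterenol, 8 with lidocaine, 3 with metoprolol, 8 with ivabradine, 4 with propranolol and 0 with amiodarone. Over 15 such markers the sum was 52.6 to 257 FPKM in the controls and 23.3 to 38.1 FPKM with isoproterenol, with the fast myosin Myh4 at 0 to 0.03 FPKM in every library, and their part in the Tnnt1 result was not tested.

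Apart from Acta1, described with the isoform pairs, 2 thin filament genes rose. Lmod2 (leiomodin), which nucleates and elongates actin filaments, was at 142, 120 and 111 FPKM in the controls and at 152, 189 and 211 FPKM with metoprolol, a rise of 0.56 (log2, SE 0.11, adjusted p = 0.0019). It rose with every drug except ivabradine (0.26, adjusted p = 0.086), in every alternative with metoprolol and propranolol, and the other 3 calls were lost without control 2 or control 3 (adjusted p = 0.055 to 0.16) and without the 4 libraries named above (adjusted p = 0.15 to 0.32), among other alternatives. Nebl (nebulette), a ruler-like protein of the thin filament end at the Z-disc, rose most with ivabradine, from 22.6, 23.4 and 20.5 FPKM in the controls to 26.4, 30.6 and 30.0 FPKM (log2 0.37, SE 0.07, adjusted p = 9.9e-04), and with every other drug except propranolol. The Nebl calls with isoproterenol, amiodarone and metoprolol were lost without control 3 (adjusted p = 0.066 to 0.096), without 1 library of the drug group (adjusted p = 0.073 to 0.096) and without the 4 libraries (adjusted p = 0.081 to 0.26). Outside these groups, Des (desmin), the intermediate filament that ties Z-discs together, rose with isoproterenol, amiodarone, propranolol and ivabradine (log2 0.18 to 0.31 for the calls), in every alternative only with isoproterenol. Smpx, a small muscle protein of costameres, was called with no drug and had log2 differences of -0.10 to 0.09.

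The calls divided by transcript length, taken from a later annotation than the authors used. The division at 1500 bases was chosen after the values were seen. Of the 13 sarcomere genes under 1500 bases, 1 (Acta1, with isoproterenol) was called higher with any drug, and of the 20 longer ones 16 were. The other 4 were Myh7, Tpm1, Xirp2 and Pdlim5. Taking each drug singly, 0.622% to 2.12% of all tested genes under 1500 bases rose, and 8.05% to 12.2% of longer ones. The same slope ran through all tested genes: the median of the mean change over the 6 drugs rose from -0.21 in the shortest 10% of genes (median length 928.5 bases) to 0.02 in the longest 10% (median length 7915 bases). Among genes of at least 5000 bases, 12 of 15 sarcomere genes rose with isoproterenol and 10 of 15 with ivabradine, where 12.9% and 12.7% of all genes of that length rose. With amiodarone, metoprolol, propranolol and lidocaine 12, 11, 10 and 11 of the 15 rose, beside 16.6%, 19.0%, 12.1% and 19.7% of all genes of that length. After each library was corrected for length and GC content, an alternative chosen after seeing the data, 24 of the 33 genes rose with isoproterenol, 18 with amiodarone, 17 with metoprolol, 20 with propranolol, 17 with lidocaine and 19 with ivabradine, and 0 fell with any drug. Of all genes tested with this correction, 18.5%, 12.9%, 13.7%, 16%, 17.6% and 15% rose in the same order of drugs, and 12.8%, 8.67%, 9.05%, 10.3%, 13.3% and 11% fell. Short genes then changed too: Tnni3 differed by 0.24 (log2, adjusted p = 0.0070) with isoproterenol, 0.21 (adjusted p = 0.018) with propranolol and 0.19 (adjusted p = 0.026) with ivabradine, where the uncorrected differences were 0.00, -0.02 and -0.01 and not called. The direction of Tnni3 and Myl2 thus depended on this correction, and no called rise was reversed by it.

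**Figure D3:**
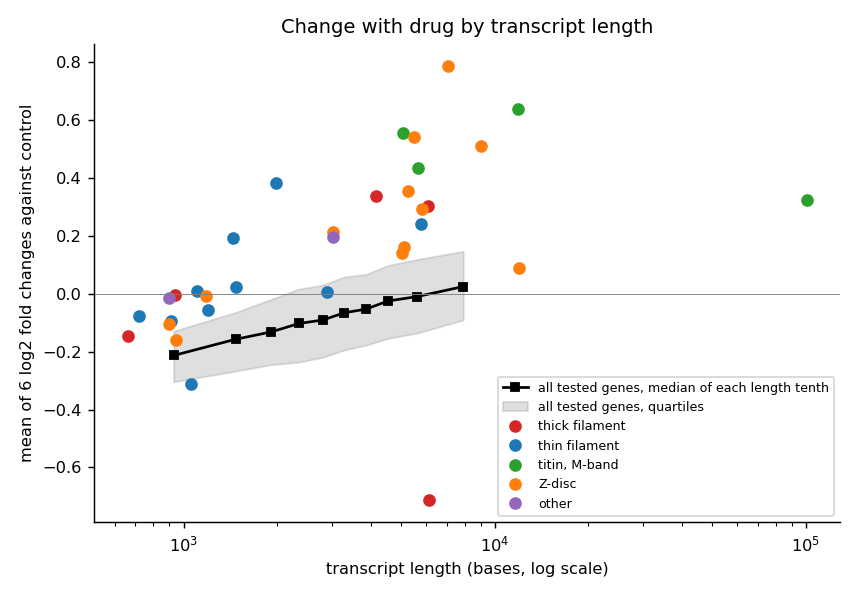
Mean of the 6 log2 fold changes against control of each of the 33 genes (points, coloured by role) against transcript length on a log axis, with the median and quartiles of all tested genes in 10 equal classes of length (black line and grey band). Most long sarcomere genes lie above the band and Myh7 lies far below it. Most short ones also lie above the quartiles of genes of like length, though Myl2, Tcap and Tnnt1 do not.

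The isoform pairs were compared as ratios within a library, which do not move with library scaling. In the control hearts Myh7 made up 2.40% ± 1.20 (SD, n = 3) of the FPKM of the Myh7 and Myh6 pair, Tnni1 11.3% ± 3.31 of its pair with Tnni3, and Acta1 1.36% ± 0.824 of its pair with Actc1. The adult or cardiac isoform thus dominated each pair at postnatal day 7. Members of a pair are close in sequence, and how reads shared between them were assigned is not given in the sources used here. Across the 21 libraries the shares ran from 0.367% (isoproterenol 3) to 4.93% (amiodarone 1) for Myh7, from 5.78% (isoproterenol 3) to 20.5% (amiodarone 1) for Tnni1, and from 0.462% (lidocaine 2) to 5.98% (isoproterenol 3) for Acta1.

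**Figure D4:**
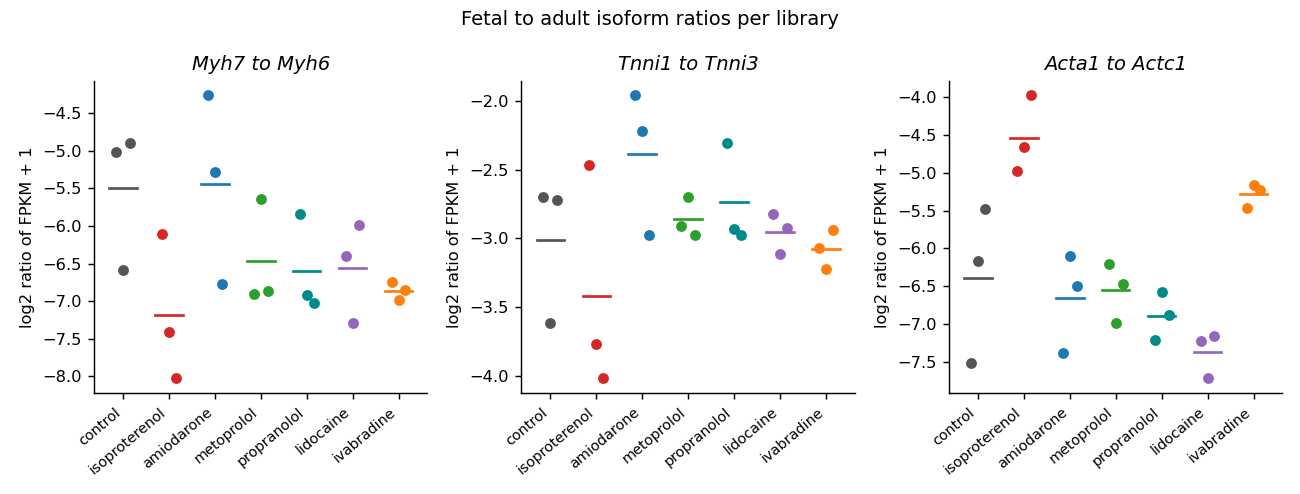
Log2 ratio of FPKM + 1 of the fetal or skeletal to the adult cardiac isoform in each library (points) with group means (lines), for 3 pairs and 7 groups. The isoproterenol libraries have the highest Acta1 to Actc1 ratios, followed by ivabradine, and the other 2 ratios overlap between most groups.

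In the actin pair isoproterenol stood highest, with ivabradine next. Acta1 was at 47.2, 122 and 193 FPKM in the controls, at 218, 273 and 553 FPKM with isoproterenol and at 200.1, 241 and 232 FPKM with ivabradine. It was at 57.4, 139 and 106 FPKM with amiodarone, at 121, 69.8 and 103 FPKM with metoprolol, at 53.7, 103 and 87.2 FPKM with propranolol and at 61.4, 43.1 and 59.9 FPKM with lidocaine. Isoproterenol and ivabradine were thus the high groups, above every other library, and lidocaine was low. Acta1 rose with isoproterenol by 1.62 (log2, SE 0.42, adjusted p = 0.0070), a call lost without isoproterenol 3 or when only the 2 groups were fitted (adjusted p = 0.052 for both). With ivabradine it differed by 1.10 (SE 0.42, adjusted p = 0.060), which passed in 6 alternatives, rescaling and leaving out control 3 among them. Actc1 was at 8782, 8823 and 8652 FPKM in the controls and at 6911, 6953 and 8705 FPKM with isoproterenol, and it ran from 8091 to 10431 FPKM in the anti-arrhythmic libraries.

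The Acta1 to Actc1 ratio was 4.04-fold higher with isoproterenol than in the 15 anti-arrhythmic libraries (log2 2.01, two-sided exact permutation test p = 0.0012, the smallest this design allows, adjusted p = 0.011 over 9 ratio tests), and all 3 isoproterenol libraries lay above all 15. Without isoproterenol 2 or isoproterenol 3 the log2 difference was 2.08 and 1.73, and the exact test, with 2 libraries left, gave adjusted p = 0.066. The test took the 15 libraries as exchangeable, although they came from 5 drugs whose ratios differed. Its p therefore does not measure the spread between drugs. The mean log2 ratio was -4.54 with isoproterenol, -5.29 with ivabradine and -7.37 with lidocaine. The nearest libraries were isoproterenol 1 at -4.98 and ivabradine 2 at -5.17. The atrial marker Myl7 was highest in isoproterenol 3, and its part in the Acta1 value of that library was not tested. The skeletal markers, whose tissue also makes Acta1, summed to 23.3 to 38.1 FPKM with isoproterenol and to 29.1 to 35.6 FPKM with ivabradine. In controls 1, 2 and 3 they summed to 52.6, 83.5 and 257 FPKM, where Acta1 was at 47.2, 122 and 193 FPKM. The part of skeletal muscle in the Acta1 values was not tested. Against the controls the ratio was 3.60-fold higher with isoproterenol and 2.14-fold higher with ivabradine, with no overlap in either case and an exact p of 0.10, the smallest that 3 libraries against 3 allow. With the other 4 drugs it overlapped the controls.

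The 250 bases before the start of Acta1 and Actc1 are shown because the pair parted under isoproterenol and both promoters hold a CArG box, the motif of serum response factor. They are from RefSeq on GRCm38.p6, a later build than that of the deposited values, written 5′ to 3′ on the minus strand of chr8:123894776-123895025 (Acta1) and chr2:114052876-114053125 (Actc1), with the box in capitals.
Acta1: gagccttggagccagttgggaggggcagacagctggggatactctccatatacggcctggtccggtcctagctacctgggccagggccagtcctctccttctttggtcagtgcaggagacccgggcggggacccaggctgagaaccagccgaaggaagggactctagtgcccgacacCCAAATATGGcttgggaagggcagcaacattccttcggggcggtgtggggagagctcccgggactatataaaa
Actc1: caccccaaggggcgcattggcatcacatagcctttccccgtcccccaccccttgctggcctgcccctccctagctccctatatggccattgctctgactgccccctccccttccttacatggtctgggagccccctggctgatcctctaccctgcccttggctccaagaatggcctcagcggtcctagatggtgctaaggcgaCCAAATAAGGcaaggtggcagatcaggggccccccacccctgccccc
The box lies at bases 73 to 64 before the start in Acta1 and at bases 47 to 38 in Actc1. The motif searched, by its name the CArG box, was found in 1.47% of 32851 promoter windows of this length, searched on both strands, and in 7 of the 41 windows (17.1%) that belong to 30 of the sarcomere genes, in 6 genes (Acta1, Actc1, Ldb3, Myl3, Myom1 and Nebl). A match describes these letters and not a bound site. Windows for Myom2, Tcap and Xirp1 were not used here.

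In the myosin pair no comparison passed the test. The Myh7 to Myh6 ratio was 2.02-fold higher in the controls than in the 18 drug libraries (log2 1.02, two-sided exact permutation test p = 0.081, adjusted p = 0.23), and the ranges overlapped. With ivabradine all 3 ratios lay below all 3 controls (log2 -1.36, exact p = 0.10, the smallest possible), and with amiodarone it differed from the controls by 0.06 (log2, exact p = 1.0). The spread within groups was wide, as amiodarone 1, 2 and 3 held 4.93%, 2.47% and 0.890% Myh7, whereas the ivabradine libraries held 0.905%, 0.766% and 0.838%. The head-to-tail neighbours Myh7 and Myh6 each have 1 MCAT box, the motif of TEAD factors (CATTCC, read here as GGAATG on the opposite strand), in the 250 bases before the start, shown in capitals for chr14:54994627-54994876 (Myh7, of whose 2 listed starts the upstream one is used) and chr14:54966608-54966857 (Myh6), both on the minus strand of GRCm38.p6.
Myh7: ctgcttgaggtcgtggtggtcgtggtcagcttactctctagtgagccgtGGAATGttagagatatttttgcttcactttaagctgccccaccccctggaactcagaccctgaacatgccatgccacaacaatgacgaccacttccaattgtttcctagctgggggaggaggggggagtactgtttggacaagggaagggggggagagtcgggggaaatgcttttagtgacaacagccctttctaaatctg
Myh6: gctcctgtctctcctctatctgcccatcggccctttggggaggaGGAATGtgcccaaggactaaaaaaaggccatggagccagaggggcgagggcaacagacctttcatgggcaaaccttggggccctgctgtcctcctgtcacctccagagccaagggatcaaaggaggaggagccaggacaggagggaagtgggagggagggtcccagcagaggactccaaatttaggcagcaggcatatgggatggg
The box stands at bases 201 to 196 before the start in Myh7 and at bases 206 to 201 in Myh6. It was found on either strand in 12.6% of all windows and in 10 of the 41 windows of sarcomere genes (24.4%), each of a different gene.

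In the troponin I pair, Tnni1 was at 574, 309 and 543 FPKM in the controls, at 606, 283 and 240 FPKM with isoproterenol and at 834, 647 and 446 FPKM with amiodarone. With the other drugs it ran from 360 to 688 FPKM, and Tnni3 ran from 3020 to 4210 FPKM over all libraries. Isoproterenol held both high and low libraries, and no drug comparison of Tnni1 or Tnni3 passed the test. The Tnni1 to Tnni3 ratio was lower with isoproterenol than with the anti-arrhythmic drugs by 0.61 (log2, two-sided exact permutation test p = 0.039, adjusted p = 0.18), and without isoproterenol 1 by 1.09 (adjusted p = 0.033). Control and drug libraries differed by -0.10 (log2 control minus drug, exact p = 0.70, adjusted p = 0.80). The troponin T pair held 0.786% ± 0.0855 Tnnt1 in the controls and 0.539% ± 0.0212 with isoproterenol (SD, n = 3), without overlap.

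Within groups the myosin and troponin I ratios varied together. After the mean of each group was removed, the Myh7 to Myh6 and Tnni1 to Tnni3 ratios correlated over the 21 libraries at Pearson's r = 0.90 and Spearman's rho = 0.90 (permutation within groups, p = 1.7e-04 and 1.6e-04, adjusted over the 3 pairs of ratios 5.1e-04 and 4.8e-04). Without the 2 libraries farthest from the median, amiodarone 1 and amiodarone 3, r was 0.89. In 21 of 21 libraries both ratios deviated from the group mean in the same direction, in some by very little. Deviations from a group mean offset each other within the group, so these 21 signs are not independent. Deviations of more than 0.25 (log2, a limit chosen after the values were seen) in both ratios were upward in isoproterenol 1, amiodarone 1, propranolol 1 and controls 1 and 3, and downward in amiodarone 3, control 2 and isoproterenol 3. The actin ratio did not follow: r was -0.41 with the myosin ratio (rho -0.45, permutation p = 0.21 and 0.14) and -0.42 with the troponin I ratio (rho -0.43, permutation p = 0.20 and 0.17).

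**Figure D5:**
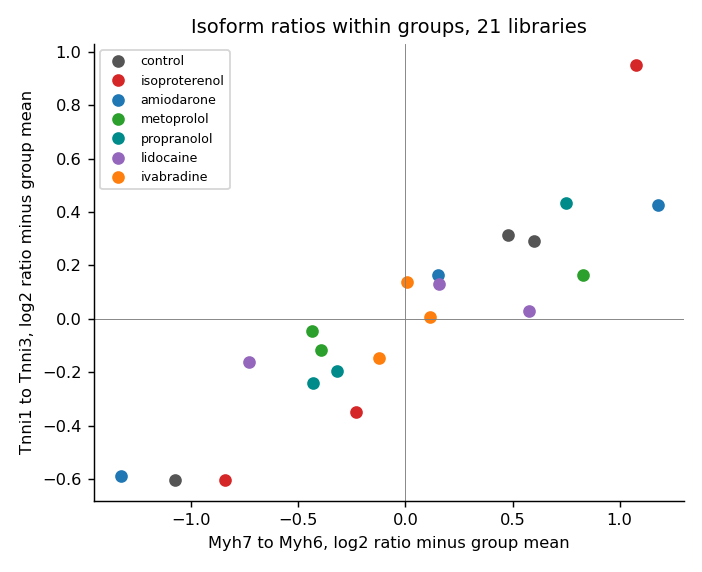
Tnni1 to Tnni3 log2 ratio against Myh7 to Myh6 log2 ratio of each of the 21 libraries, both as the deviation from the group mean and coloured by group. The points run from amiodarone 3, control 2 and isoproterenol 3 at the lower left to isoproterenol 1 and amiodarone 1 at the upper right, with r = 0.90.

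Isoproterenol was then set against the mean of the 5 anti-arrhythmic groups. No control library enters this difference, although the controls add to the shared estimate of its spread. Of the 33 genes 5 were higher and 3 lower, beside 9.51% and 13.3% of all tested genes, so the count of calls was near that of genes in general. Acta1 was higher by 1.71 (log2, SE 0.33, adjusted p = 0.0011) although the ivabradine libraries overlapped, and held in every alternative. Tcap was higher by 0.62 (SE 0.12, adjusted p = 9.3e-04), at 386, 626 and 498 FPKM with isoproterenol and from 267 to 431 FPKM in the 15 others. Ldb3 was higher by 0.21 (SE 0.04, adjusted p = 0.0017), and its isoproterenol libraries, at 410, 437 and 421 FPKM, lay above all 15 others, as was so for 3.43% of all tested genes. Of the genes that rose with every drug, 2 were lower with isoproterenol than with the anti-arrhythmic drugs, Flnc by -0.29 (SE 0.06, adjusted p = 0.0024), in every alternative, and Nrap by -0.18 (SE 0.06, adjusted p = 0.048), a call lost in 20 alternatives. Actc1 was lower by -0.30 (SE 0.07, adjusted p = 0.0056), a call lost with no filter and without isoproterenol 1 or isoproterenol 2 (adjusted p = 0.055 to 0.093). Des and Smpx, higher by 0.14 and 0.12, were lost in 8 and 23 alternatives.

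Among the 5 anti-arrhythmic groups, limma's F test called 0 of the 33 genes, beside 1.06% of all tested genes, and 5 of the 33 had an unadjusted p below 0.05, as did 12.4% of all genes. The smallest adjusted p-values were those of Flnc (0.078), Xirp1 (0.092) and Acta1 (0.12). Over all 7 groups the F test called 20 of the 33, where it called 39.9% of all tested genes.

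Other genes of the same apparatus, from lists written by role and not by how they moved, gave a mixed picture. Beside the counts below, 6.98% to 10.6% of all tested genes rose and 19.1% to 26.6% fell with a drug. Of 29 other Z-disc and costamere genes tested, 7 to 11 rose and 0 to 2 fell with each anti-arrhythmic drug, but 6 rose and 9 fell with isoproterenol. Jph2, which holds the sarcoplasmic reticulum to the surface membrane, rose by 0.69 (log2, SE 0.06, adjusted p = 8.4e-07) with lidocaine. Against the anti-arrhythmic groups, isoproterenol had 14 of these 29 lower and 1 higher, beside 13.3% and 9.51% of all tested genes. Their median log2 difference was -0.21, and -0.01 over all tested genes. The falls were led by the stretch-responsive Ankrd23 (-0.83, SE 0.10, adjusted p = 3.8e-05, 64.2 against 116 FPKM) and the focal adhesion protein Zyx (-0.44, SE 0.05, adjusted p = 3.4e-05). Of 25 other contractile genes 3 to 5 rose and 3 to 11 fell with each drug. The 11 falls were with isoproterenol, and the 3 to 8 with the anti-arrhythmic drugs were not far from the share of all tested genes. This list holds genes of skeletal muscle and atrium. The largest called fall with every drug but amiodarone was that of Tnnc2, fast skeletal troponin C. Its controls were uneven, at 4.90, 9.57 and 39.5 FPKM. Myl7, called higher with isoproterenol, was at 1.27, 2.59 and 176 FPKM there. The part of other tissue in these calls was not tested. The actin assembly factor Fhod3 rose by 0.65 (SE 0.08, adjusted p = 7.0e-05) with amiodarone and the cardiac light chain kinase Mylk3 by 0.52 (SE 0.08, adjusted p = 2.9e-04). The smooth muscle actin Acta2, which the fetal heart also expresses, was lower with isoproterenol than with the anti-arrhythmic drugs by -1.05 (SE 0.10, adjusted p = 2.8e-06; 173 against 361 FPKM), opposite in direction to Acta1. Of 19 genes of sarcomere turnover and folding 5 to 8 rose and 0 or 1 fell with each drug. Smyd1, a methyltransferase needed for myofibril assembly, rose by 0.71 (SE 0.07, adjusted p = 5.8e-06) and the ubiquitin ligase Fbxo32 (atrogin-1) by 0.70 (SE 0.12, adjusted p = 3.8e-04) with isoproterenol. Of 12 cardiomyocyte genes outside the sarcomere 5 to 8 rose and 0 or 1 fell with each drug. Of the 33 sarcomere genes 13 to 17 rose with each drug, so frequent rises were not particular to them. Atp2a2, 1 of these 12 genes, rose by 0.82 (log2, SE 0.09, adjusted p = 1.1e-05) with lidocaine.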

How the data were processed

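The authors deposited 1 table of FPKM values for 18762 genes in 21 libraries. Per the labels' protocols, RNA was selected by oligo dT or depletion of ribosomal RNA (which is not said) and sequenced on a BGISEQ-500, and the submitters' processing notes name HISAT, Bowtie2 2.2.5 and mm9. The counting tool, annotation and filters are not given in the sources used here. No value column was left unmapped (0).

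Tests covered the 12433 genes that reached 1 FPKM in 3 or more libraries, and the 33 sarcomere genes all passed this filter. Values were analysed as log2(FPKM + 1) with limma 3.58.1 in R 4.3.3, with 1 mean per group over all 21 libraries (14 residual degrees of freedom), a mean-variance trend and Benjamini-Hochberg adjustment over all tested genes within each comparison, with 0.05 as the threshold. Isoform ratios were compared by exact permutation tests in Python 3.11.15 with scipy 1.17.1, adjusted over 9 pooled and separately over 18 single-drug tests. The pooled tests took libraries of different drugs as exchangeable, so their p-values do not measure the spread between drugs. On data simulated for isoproterenol against control over 12433 genes, 32%, 80%, 98% and 100% of genes changed by 0.25, 0.5, 1 and 2 log2 were recovered, with 10 false calls among 12233. Only 50 genes of each size were changed there, with independent noise. The deposited values had far more calls and a slope with transcript length, so these rates need not hold for them.

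The alternatives were to add 0.1 before taking logs, to drop the filter or raise it to 5 FPKM, to rescale libraries by median ratios, to fit only the groups compared, to leave out the trend, to moderate robustly, to add the replicate number of the titles as a block, and to leave out each library in turn or the 4 libraries high for other-tissue markers. A spline correction (4 degrees of freedom) for length and GC content was added after seeing the data, with lengths for 96.7% of genes from another build. The genes, lists and tests were chosen with earlier results of these data known. All 33 genes are accounted for. Values in every library are given for the isoform pairs and for the called genes of largest change, and of other lists the 2 largest called changes in a comparison are named in part. Markers are named where they differ by library.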

Additional observations from a re-analysis of the deposited data

How the results depend on the processing

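The number of sarcomere genes called was within 1.5 times the reported count in most alternatives, and the exceptions follow. Without the 4 libraries high for other-tissue markers it was 7 with amiodarone, 8 with propranolol, 5 for isoproterenol against the anti-arrhythmic groups and 10 for the F test of 7 groups, and all genes called fell to 1940, 1117, 2791, 1355, 3511 and 2229 in the 6 drug comparisons from 4254, 3608, 3910, 3332, 4615 and 3358, with fewer libraries fitted. Isoproterenol against the anti-arrhythmic groups gave 4 genes with no filter, and fitting only the compared groups gave 6 with ivabradine and 1 (Acta1) for the F test among the 5 anti-arrhythmic drugs. Title numbers did not pair the libraries (residual correlations of same-numbered libraries -0.54 to 0.29, median -0.03 over 63 pairs, and 3 of 21 libraries correlated best with their own number). With the number as a replicate block the count for isoproterenol against the anti-arrhythmic groups was 5. Leaving out each library in turn gave 14 to 20 genes with isoproterenol, 9 to 16 with amiodarone, 12 to 16 with metoprolol, 9 to 15 with propranolol, 13 to 17 with lidocaine, 9 to 14 with ivabradine, 4 to 8 for isoproterenol against the anti-arrhythmic groups (fewest without isoproterenol 2), 13 to 20 for the F test of 7 groups and 0 to 1 for that of 5. The lowest counts with amiodarone and propranolol and for the 7 groups came without control 3. The Acta1 to Actc1 difference between isoproterenol and the anti-arrhythmic libraries ran from 1.73 to 2.23 when 1 library was left out and was 1.72 (exact permutation test, adjusted p = 0.086) without the 4 libraries, and the Tnni1 to Tnni3 difference ran from -1.09 to -0.31. Differences that changed sign and were called in at least 1 of the settings numbered 4, all with the length and GC correction: Myl2 with lidocaine (0.058) and Tnni3 with isoproterenol (0.24), propranolol (0.21) and ivabradine (0.19), and the cause was not tested. Among differences called in neither setting, 86 of all 5148 values recomputed changed sign. The Acta1 to Actc1 ratio against control, with 1 library left out, ran from -0.84 to 0.18 with amiodarone and from -0.73 to 0.28 with metoprolol, and for control against anti-arrhythmic libraries from -0.29 to 0.73. Over all alternatives Acta1 ran from -0.69 to 0.31 and Myh7 from -0.26 to 0.97 with amiodarone. Of the 231 single-gene results, 144 were followed (every called gene and the isoform genes). Among these 4 were reversed, 221 lost a call, 25 gained one and 4214 kept their side of the threshold, counting each result under each alternative. Without read counts the precision of low transcripts such as Synpo2 cannot be given.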

Other observations

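Genes whose variation within groups was most like that of the fetal isoforms are given as a description over the 21 libraries, with the group means removed and no test, and were named after their values were seen. For Myh7 these were Mfsd7c (r = 0.92), Aldoc (r = 0.90) and Tnni1 (r = 0.90), and the most opposite were Hspb6, a small heat shock protein of muscle (r = -0.93), and Abcb4 (r = -0.92). For Tnni1 they were Tead2 (r = 0.93), a TEAD factor, Marcksl1 (r = 0.93) and Rasd2 (r = 0.92), with Pnpla3 and Hrasls (both r = -0.91) opposite. For Acta1 they were Prune2 (r = 0.85), Cnn1 (r = 0.82), Tnfaip3 (r = 0.81) and Tagln (r = 0.80), of which Cnn1 and Tagln encode the smooth muscle proteins calponin and transgelin. These libraries share depth and composition, and the values describe likeness alone.

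The natriuretic peptide Nppb, which with Myh7 and Acta1 is often counted among fetal cardiac genes, was at 118, 128 and 135 FPKM in the isoproterenol libraries, where Acta1 was highest. Nppb was named after its values were seen. It was at 290, 272 and 342 FPKM in the controls and, apart from lidocaine 2 (140 FPKM), at 283 FPKM or above in every other library. Nppa, the other peptide, ran from 712 to 1012 FPKM with isoproterenol and from 541 to 1087 FPKM in the controls, so that it overlapped.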
